A study of Mus musculus with 43 samples.

Results

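The histone cluster genes code for the proteins around which DNA is wrapped: the core histones H2A, H2B, H3 and H4, and the linker histone H1, which binds where DNA enters and leaves the core particle. Every row of the deposited expression tables whose symbol starts with Hist1, Hist2, Hist3 or Hist4 was taken. This gave 39 genes of the 14773 listed in either table, of which 5 code for H1, 9 for H2A, 11 for H2B, 7 for H3 and 7 for H4. The table of the processing conditions lists 35 of them among 13845 genes and the table of the input series 27 among 13817, and 23 are in both.

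Most of these genes are transcribed in S phase, when new chromatin is assembled behind the replication fork. Their mRNAs end, as the only known group in animals, in a short stem-loop in place of a poly(A) tail. The stem-loop-binding protein SLBP holds this end, and the mRNA is degraded when DNA synthesis stops. Some cluster genes also give rise to polyadenylated mRNAs by cleavage further downstream, and the replication-independent histone variants, such as H2A.Z (H2afz) and H3.3 (H3f3a, H3f3b), are polyadenylated throughout the cell cycle. The libraries here were primed with oligo(dT), which copies polyadenylated RNA, so the values describe mainly that form of each histone mRNA.

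All libraries were made from PD798, a cell line from a pancreatic tumor of a genetically engineered mouse, whose alleles include Pdx1-Cre, p53 L/+ and Rosa YFP/YFP, so that recombination in the pancreatic lineage switches on the yellow fluorescent protein. Both the treated and the control libraries carry these alleles, and the line comes from 1 tumor model. Cells were cultured in DMEM with 10% serum for 48 to 72 h before they were detached. In the processing experiment, bulk RNA was extracted from 12 samples, 3 per condition. Pre-FACS cells were banked before the sort. Mock cells stood in staining buffer at room temperature. Pre-enriched cells were incubated with magnetic particles and red cell lysis buffer and passed through the magnetic and acoustic pre-enrichment step and the BD Influx sorter. FACS-only cells are described as the same sample run on this sorter without the pre-enrichment step. The labels name mouse blood for the processing libraries too, the study's description of this experiment does not, and whether these cells met blood is not settled here. In the input series, 31 libraries were made from 11 single cells, 12 pools of 10 cells, 6 pools of 100 cells and 2 bulk RNA samples. The single cells and pools were spiked into mouse blood, pre-enriched and sorted. The bulk RNA is control RNA of the line by the study's description, and its labels name the same flow treatment as those of the sorted cells.

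The epithelial keratin genes Krt8, Krt18 and Krt19 were abundant in all 12 processing libraries (Krt19, 3682 to 4082 TPM). Of the 6 epithelial genes looked for, Cdh1 stood at 975.9 to 1057 TPM there, but Epcam at 32.1 to 38.9 and Cldn7 at 2.78 to 7.65 TPM. In the input series, Epcam and Cldn7 had means of 810.3 and 570.5 TPM. Cdh1 and Krt8 went the other way, with means of 176.9 and 4108 TPM there against 1009 and 7355 TPM in the processing libraries. Krt18 and Krt19 had means of 9321 and 4042 TPM against 8982 and 3872 TPM. Of the 12 leukocyte marker genes looked for, only Ptprc, which codes for CD45, is in the table of the processing conditions, at 0.689 TPM or less. In the input series, 4 of the 12 are listed, without Ptprc, and their sum ranged from 0 to 149.6 TPM per library, with the highest value in 100-cell pool 5, where S100a8, a neutrophil gene, stood at 128.3 TPM. The sum was 45.8 and 61.1 TPM in bulk RNA, and 0 TPM in several single cells. Of 9 erythroid genes only Alas2 is listed, at up to 278.4 TPM in single cell 11, and the hemoglobin genes looked for (Hba-a1, Hba-a2, Hbb-bs and Hbb-bt) are in neither table. Whether RNA of blood cells contributed to histone values was not tested.

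Several libraries of the input series stood apart from others of their label. Single cells 6 and 9 list 13692 and 13551 genes above 0 TPM, against 4465 to 9234 in the other 9 single cells, and 10-cell pools 5 and 12 list 13597 and 13584 genes, against 10178 to 11915 in the other 10. Across the 13817 genes, log2(TPM + 1) of single cells 6 and 9, 10-cell pools 5 and 12 and 100-cell pools 1 to 3 correlated with each other at r = 0.973 to 0.996 (21 pairs). The other single cells correlated with each other at r = 0.56 to 0.755, the other 10-cell pools at r = 0.882 to 0.956, and these 7 libraries with 100-cell pools 4 to 6 at r = 0.893 to 0.934. These r are across genes, which are not independent replicates. The cause was not tested, and for single cells and 10-cell pools the summed TPM, the number of genes at 1 TPM or more and the ratios to bulk RNA are given with and without these libraries, while the 100-cell pools are given 1 by 1.

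The 3′ ends of the transcripts are shown first, because the level of each gene is set beside them later. In the GENCODE annotation of mouse build mm10, all 39 genes were found, 33 on chromosome 13, 3 on chromosome 3, 2 on chromosome 11 and 1 on chromosome 6, and all code for protein. The stem-loop was searched for as 6 bases starting with GG, a loop of 4 bases starting with TT, and the 6 bases complementary to the first, on the transcript strand after the stop codon. It was found in 29 of the 39 genes, and in 30 of their 41 protein-coding transcripts (73.2%). In 6 of the other genes the annotated transcript holds at most 1 base after the stop codon, so none could be found there. Anywhere in the 58725 protein-coding transcripts of other genes, 0.276% hold such a sequence. The 26 bases around it are given for genes described below, with the stem and loop in capitals.
Hist1h1c, chr13:23739507-23739532, plus strand: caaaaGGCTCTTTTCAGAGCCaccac
Hist1h1d, chr13:23555782-23555807, plus strand: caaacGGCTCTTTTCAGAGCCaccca
Hist3h2a, chr11:58955167-58955192, plus strand: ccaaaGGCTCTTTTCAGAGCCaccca
Hist1h2ae, chr13:23570663-23570688, minus strand: acaaaGGCTCTTTTCAGAGCCattca
Hist1h2bb, chr13:23747198-23747223, plus strand: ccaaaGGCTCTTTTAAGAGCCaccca
Hist1h3d, chr13:23576239-23576264, plus strand: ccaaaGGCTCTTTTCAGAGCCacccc
Hist1h4d, chr13:23581945-23581970, plus strand: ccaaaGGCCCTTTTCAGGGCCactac
Hist1h4i, chr13:22040961-22040986, minus strand: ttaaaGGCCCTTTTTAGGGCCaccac

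The first stem-loop shown was shared by 19 genes, 3 of H1, 6 of H2A, 7 of H2B and 3 of H3. The form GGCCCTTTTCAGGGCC was found in 4 genes, all of H4, and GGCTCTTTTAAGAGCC in 3. The first form was thus found in some genes of each class but H4.

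The other kind of end is marked by a polyadenylation signal, searched for as AATAAA or ATTAAA in the last 50 bases of the annotated transcript, on its own strand. It was present in 12 of the 41 histone transcripts (29.3%), which belong to 11 genes, against 50.2% of the 58725 other transcripts. The 30 bases around it are given for the abundant genes that have one and for Hist1h4i and Hist1h2ae, with the signal in capitals.
Hist1h1c, chr13:23740330-23740359, plus strand: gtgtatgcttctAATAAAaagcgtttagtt
Hist3h2a, chr11:58956785-58956814, plus strand: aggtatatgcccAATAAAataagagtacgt
Hist2h2be, chr3:96223705-96223734, plus strand: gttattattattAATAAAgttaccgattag
Hist1h2ae, chr13:23570527-23570556, minus strand: cccagcttctccAATAAAtgggtcaatttt
Hist1h4i, chr13:22040639-22040668, minus strand: ggttctgtttacATTAAAagtattctatgc

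In Hist1h1c, a linker histone gene of 1 exon, the annotated transcript thus runs 840 bases past its stem-loop, and the signal stands 20 bases before its end. In Hist3h2a it runs 1643 bases past, and in Hist1h4d 770 bases. Hist1h2bc has 2 annotated exons, and no stem-loop was found in the 742 bases after its stop codon. The exon with the stop codon ends 9 bases after it, and the rest lies in the other exon. In genes with a stem-loop it began 21 to 54 bases after the stop codon. The search of this transcript therefore could not show that Hist1h2bc lacks one. In Hist2h2be no stem-loop was found in 2192 bases. The annotated transcript of Hist1h1b ends at the stop codon, so nothing can be read from it about its 3′ end.

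In the 12 processing libraries, the level of the histone genes was set by a few of them (TPM, a measure per transcript length that adds up to a fixed total in each library). Hist1h1c was the highest, at 274.2, 262.3 and 194.7 TPM in Pre-FACS, 313.3, 271.2 and 201.4 in Mock, 269.0, 254.2 and 198.4 in FACS-only and 283.8, 217.8 and 191.7 in Pre-enriched libraries. Hist1h2bc, a core histone H2B gene, followed at 96.2 to 153.1 TPM with a mean of 123.8. The ranges of these 2 genes over the 12 libraries did not overlap. Together they held 67.0% to 73.9% of the summed histone TPM of a library. In both genes the ranges of all 4 conditions overlapped.

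Next came Hist3h2a of H2A with a mean of 26.9 TPM over the 12 libraries and Hist1h4d of H4 with 18.8. Hist2h2be (14.0), Hist1h1d (11.9), Hist1h4i (11.5), Hist1h2bg (11.1), Hist1h1e (10.3) and Hist1h1b (8.83) followed in mean TPM, and the ranges of these genes over the 12 libraries overlapped: Hist2h2be ranged from 9.73 to 17.1 TPM and Hist1h1e from 6.61 to 14.4. The annotated transcript of Hist1h1e overlaps that of Hist1h2be on the same strand, so reads there could have been split between them. Of the 35 genes, 23 had a mean under 5 TPM, and 14 reached 1 TPM or more in all 12 libraries. The genes of H3 were the lowest class. Their sum was 5.65 to 13.5 TPM per library against 218.6 to 353.0 TPM for H1, and the highest of them, Hist1h3d, had a mean of 2.69 TPM.

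**Figure D1:**
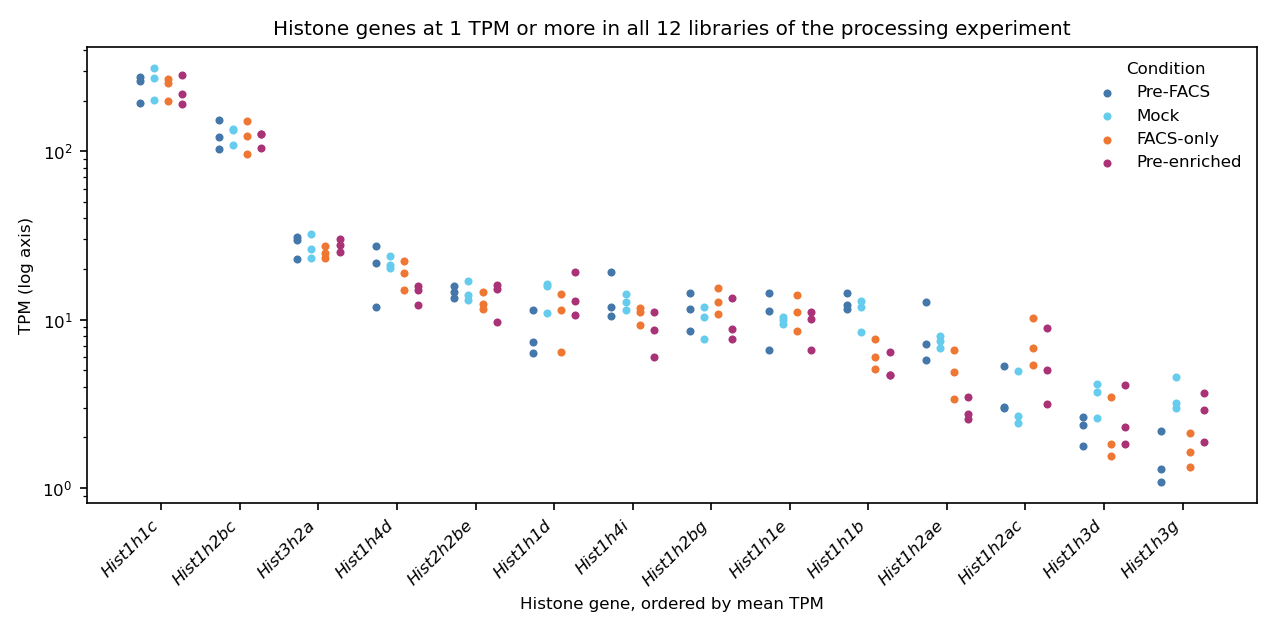
TPM (log axis) of the 14 histone genes at 1 TPM or more in all 12 libraries of the processing experiment, ordered by mean; each point is 1 library and colors mark the 4 conditions. Hist1h1c and Hist1h2bc lie above the other genes in every library, and Hist1h1b is lower in all 6 sorted libraries (FACS-only and Pre-enriched) than in the 6 others.

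The level of a gene could be set beside the length of its annotated 3′ end. Of the 35 genes, 18 have an annotated transcript that ends within 100 bases of the stem-loop, or, where none was found, of the stop codon. Their median was 1.46 TPM (0.60 to 8.83), and Hist1h1b was the only one at 5 TPM or more. In the other 17 genes, whose annotation runs further, the median was 10.3 TPM (0.524 to 244.3) and 11 reached 5 TPM. In the input series, the medians were 0.403 TPM over 9 genes and 1.93 TPM over 18. By stem-loop, the median was 1.58 TPM over 27 genes with it and 2.24 TPM over 8 without. In the input series these were 1.42 and 0.571 TPM, so the order turned. The genes without it include Hist1h1b, Hist1h2af, Hist1h2ak, Hist1h3i, Hist1h4k and Hist2h2bb, where listed. Their annotated transcripts end at the stop codon or 1 base after it, so no stem-loop could be found there. This split therefore does not show which genes lack a stem-loop. By polyadenylation signal, it was 5.96 TPM over 9 genes with it and 1.58 TPM over 26 without. In the input series these were 1.54 and 0.618 TPM. Hist1h2bp, whose signal is in its longer transcript only, was counted as without. These are descriptions across genes that share libraries and sequence. Which annotation the authors counted on is not given in the sources used here, TPM divides by the length used there, and whether the annotated length itself moved the TPM was not tested.

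**Figure D2:**
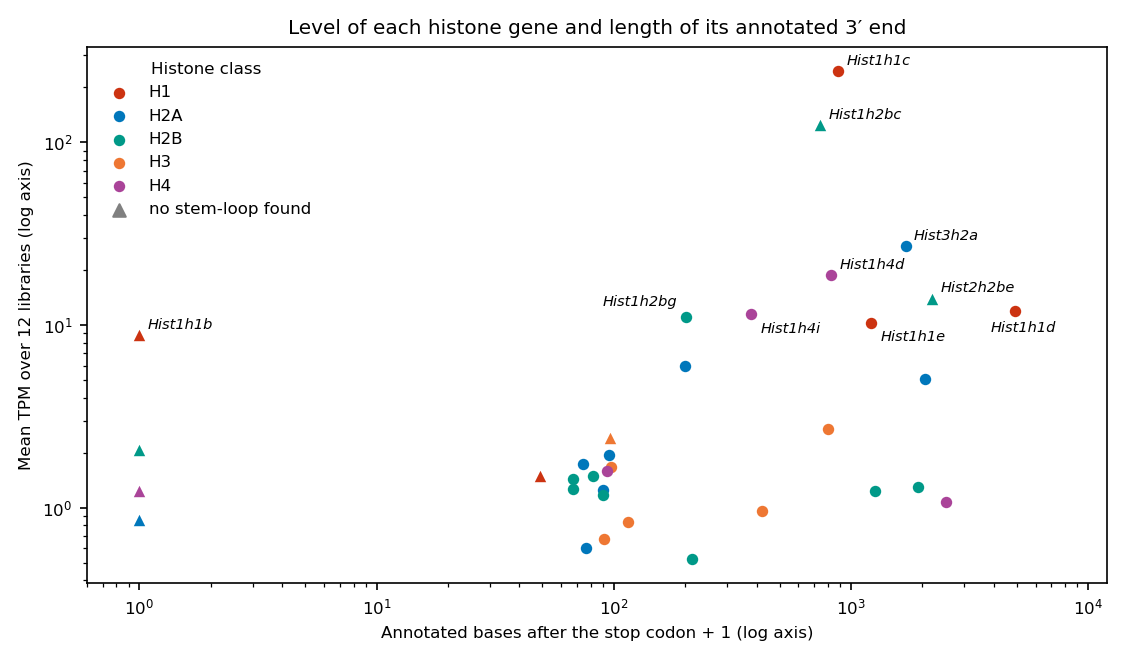
Mean TPM over the 12 processing libraries (log axis) against the number of annotated bases after the stop codon plus 1 (log axis), for 35 histone genes colored by class. Triangles mark genes in which no stem-loop was found, also those whose annotated transcript ends at the stop codon. Of the 17 genes with an annotated end over 100 bases past the stem-loop or stop codon, 11 reached 5 TPM; of the 18 others, only Hist1h1b did.

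Histone genes resemble each other, which limits how far reads can be told apart. In the annotated transcripts, a median of 28.4% of the 75-base words of a histone gene were also found in another annotated transcript. The share was 0% in Hist1h1a, Hist1h1b and Hist2h2be, 6.66% in Hist1h1c, 3.67% in Hist1h4d, 27.1% in Hist1h2bc and 30.6% in Hist3h2a. In 10 of the 39 genes it was at least 50%, with the highest value of 78.3% in Hist1h3i. How the authors counted reads that match several genes is not given in the sources used here, so values of the genes with shared sequence are uncertain.

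The processing experiment asks whether magnetic labeling, lysis buffer, sorting or time on the bench change expression. The summed histone TPM was 615.3, 547.3 and 430.6 in Pre-FACS, 621.4, 567.8 and 464.1 in Mock, 584.3, 535.4 and 428.6 in FACS-only and 555.3, 504.8 and 433.1 in Pre-enriched libraries. These ranges overlapped between all conditions. Genes were tested with limma on log2(TPM + 1) over the 12159 genes at 1 TPM or more in at least 3 libraries, with Benjamini-Hochberg adjustment over all of them. Of the 35 histone genes, 34 were tested, all but Hist1h3a. No separate cultures are named, so p-values measure the spread between these samples, which may be technical.

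Hist1h1b codes for the linker histone H1.5. Without the replicate number as a block, it alone of the histone genes differed among the 4 conditions (limma F test, adjusted p = 0.0314). Without the filter on low values and without the mean-variance trend of limma the call was lost (adjusted p = 0.0607 and 0.143). With the block it was kept and Hist1h2ae was called too, as given below with the dependence on processing. In the fit without a block, 0.107% of all genes tested passed this threshold (13 of 12159). At an unadjusted p under 0.05 in this fit there were 10 histone genes of 34, where the share of all genes was 7.56%. Hist1h1b stood at 12.3, 14.4 and 11.6 TPM in Pre-FACS, 12.8, 11.9 and 8.44 in Mock, 7.72, 5.09 and 5.98 in FACS-only and 4.72, 6.44 and 4.68 in Pre-enriched libraries. The values of the 6 sorted libraries were all below those of the 6 unsorted ones. Of the 34 histone genes it was the only one with such a split, a share to be read against the 0.370% of all genes that were lower without overlap, the 0.354% that were higher and the 0.724% in either direction; this comparison was chosen after the values were seen.

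By pairs of conditions, Hist1h1b fell by 1.14 on the log2(TPM + 1) scale from Pre-FACS to Pre-enriched libraries (SE 0.183, limma adjusted p = 0.0310, where 0.0493% of all genes passed). Means were 12.8 ± 1.46 TPM and 5.28 ± 1.01 TPM (SD, n = 3). From Pre-FACS to FACS-only the difference was -0.93 (adjusted p = 0.0622), from Mock to Pre-enriched -0.93 (adjusted p = 0.233) and from Mock to FACS-only -0.73 (adjusted p = 0.693), all from the same limma fit, and these did not pass. Between Mock and Pre-FACS it was -0.21 (adjusted p = 0.997), and between Pre-enriched and FACS-only -0.21 (adjusted p = 0.893). The pairs share libraries and are not independent of each other. The threshold was passed among the 4 conditions when FACS-only 1, Mock 3 or Pre-enriched 2 was left out (adjusted p = 0.0185 to 0.0476), but not without any 1 of the other 9 libraries, from 0.0605 without Mock 1 to 0.151 without Pre-FACS 2. For Pre-enriched against Pre-FACS, leaving out any Mock or FACS-only library kept adjusted p at 0.0460 or lower. Without the filter and without the trend it was 0.0581 and 0.0844. Leaving out any library of the pair raised it, to 0.0503 without Pre-enriched 2, 0.0631, 0.199 and 0.0763 without Pre-FACS 1, 2 and 3, and 0.178 and 0.237 without Pre-enriched 1 and 3.

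Hist1h2ae, a core histone H2A gene, had 12.7, 7.14 and 5.73 TPM in Pre-FACS, 7.44, 6.79 and 8.00 in Mock, 4.91, 3.38 and 6.61 in FACS-only and 3.48, 2.59 and 2.75 in Pre-enriched libraries. The Pre-enriched values lay below every Pre-FACS and Mock value and overlapped those of FACS-only. The difference of Pre-enriched from Pre-FACS was -1.21 on the log2 scale (SE 0.242, limma adjusted p = 0.107) and that from Mock -1.10 (adjusted p = 0.256), and neither passed in this fit without a block. With the replicate number as a block the difference from Pre-FACS was called, as given below with the dependence on processing. Of its 75-base words, 34.4% occur in other annotated transcripts.

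Hist1h2bb and Hist2h2bb, H2B genes at low levels, were also among those of lowest adjusted p against Pre-FACS, and neither passed in this fit. Hist1h2bb was listed at 0.262, 0 and 0.272 TPM in Pre-FACS, 0.547, 1.07 and 0.804 in Mock, 2.13, 2.75 and 1.61 in FACS-only and 1.32, 3.48 and 1.05 in Pre-enriched libraries, and the FACS-only values lay above all Mock and Pre-FACS values. FACS-only against Pre-FACS gave +1.42 on the log2 scale (SE 0.284, limma adjusted p = 0.0658), which missed the threshold without a block and was called with the replicate number as a block. Hist2h2bb had 1.04, 0.539 and 0 TPM in Pre-FACS, 1.36, 2.39 and 2.66 in Mock, 3.97, 3.00 and 1.34 in FACS-only and 3.41, 2.39 and 2.86 in Pre-enriched libraries. Every Pre-FACS value of Hist2h2bb was below every value of the other conditions. Its differences from Pre-FACS were +1.40 in Pre-enriched (limma adjusted p = 0.138), +1.30 in FACS-only (0.164) and +1.07 in Mock libraries (0.923). Of its 75-base words, 49.8% are shared with 1 other annotated gene, Gm42743, and 36.6% of those of Hist1h2bb occur elsewhere.

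**Figure D3:**
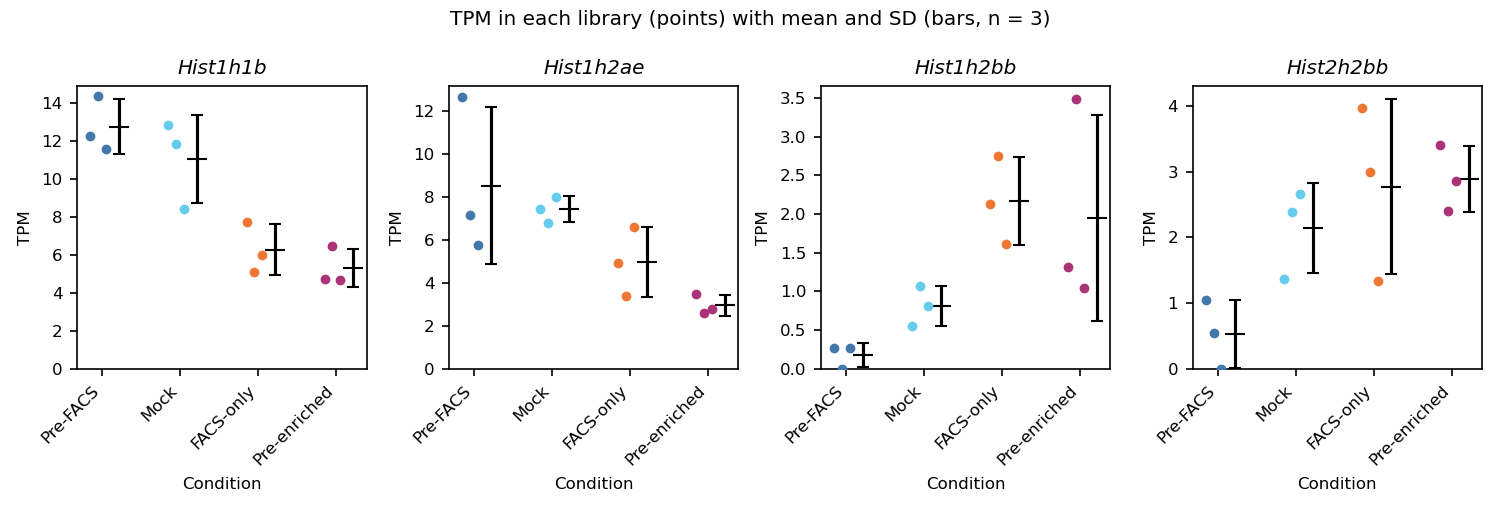
TPM of Hist1h1b, Hist1h2ae, Hist1h2bb and Hist2h2bb in each library of the 4 conditions (points), with the mean and SD of the 3 libraries (bars). Hist1h1b lies at 4.68 to 7.72 TPM in sorted and 8.44 to 14.4 TPM in unsorted libraries. Of the 4 genes, it alone passed the limma threshold in the fit without a block.

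No histone gene other than Hist1h1b passed in any pair of this fit. Outside the 4 genes above, those of lowest adjusted p in a pair were genes of H2A, H2B, H3 and H4, most of them at a few TPM. Hist1h3e of H3 differed by -1.29 between Mock and Pre-FACS (limma adjusted p = 0.627), with 1.09, 2.54 and 2.27 TPM in Pre-FACS and 0.285, 0 and 0.279 TPM in Mock libraries. Hist1h3g of H3 differed by +0.87 between Mock and Pre-FACS (adjusted p = 0.849) and by -0.75 between FACS-only and Mock (adjusted p = 0.803). Hist1h2ac differed by +0.96 between FACS-only and Mock (adjusted p = 0.803). Hist1h2ab and Hist1h2bm differed by +0.77 and +0.86 between Pre-enriched and FACS-only (adjusted p = 0.716 and 0.733), and Hist1h4i by -0.55 between Pre-enriched and Mock (adjusted p = 0.563).

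At an unadjusted p under 0.05 in limma, 11 of the 34 histone genes separated Pre-enriched from Pre-FACS libraries, where 9.18% of all genes did. Of these, 8 were higher (3.72% of all genes) and 3 lower (5.46%). For FACS-only against Pre-FACS there were 9 (6.96%), of which 5 were higher (3.75%) and 4 lower (3.21%), and at an adjusted p there were 0 histone genes where 0.123% of all genes passed. For Mock against Pre-FACS there were 6 (4.53%), 5 higher (2.23%) and 1 lower (2.30%), and again 0 at an adjusted p, where 0.00822% of all genes passed. At this loose threshold, more histone genes were thus higher than lower in each pair with Pre-FACS, whereas over all genes more were lower than higher in the pairs of Pre-enriched and of Mock libraries. This difference was not tested.

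Between Mock, FACS-only and Pre-enriched libraries, 0% of all genes passed at an adjusted p in limma. Pre-enriched and FACS-only libraries differed in 3 histone genes at an unadjusted p under 0.05 (6.75% of all genes), 2 higher (2.22%) and 1 lower (4.53%). Pre-enriched and Mock libraries differed in 8 (7.77%), 4 higher (3.19%) and 4 lower (4.58%). FACS-only and Mock libraries differed in 5 (5.63%), 2 higher (3.17%) and 3 lower (2.45%).

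The median log2 difference over the 34 genes was -0.07 for Pre-enriched, -0.03 for FACS-only and -0.05 for Mock, each against Pre-FACS, and over all genes it was -0.014, 0.0010 and -0.0046. Of the 34 differences, 15 were above 0 in each of these 3 pairs, where 45.6%, 50.3% and 48.5% of all genes were. For Pre-enriched against FACS-only and against Mock, 20 and 18 were above 0 (45.6% and 46.5% of all genes), and for FACS-only against Mock 15 (51.1%). Positive and negative differences were thus of similar number in every pair.

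Among the genes that act with the cluster histones, 0 passed in limma, among the 4 conditions or in any of the 6 pairs. Among the 4 conditions, an unadjusted p under 0.05 was found for 2 replication-independent histones, 1 chaperone, 1 S phase gene, 1 G2/M gene and 0 genes of 3′ end processing, where the share of all genes was 7.56%, and 0.107% of all genes passed at an adjusted p. Some replication-independent histones were far more abundant in the same libraries than the cluster genes: H3f3b had a mean of 1569 TPM, H2afz 1154 TPM and the linker histone H1f0 967.4 TPM. Others were not, among them H2afj with 69.1, H1fx with 6.16 and H2afy2 with 0.504 TPM on average. The sum over all 11 was 4484 to 5021 TPM per library. Of these 11 genes, 10 were tested, and the lowest adjusted p among the 4 conditions was 0.635 (H1fx, 4.76 TPM in Pre-FACS and 7.67 in Mock on average). All 16 genes for histone mRNA transcription and 3′ end processing, among them Slbp, were tested, with a lowest adjusted p of 0.809 (Casp8ap2, whose product FLASH takes part in this cleavage). Among 18 histone chaperones it was 0.509 (Npm1, nucleophosmin, 813.6 TPM in Pre-FACS and 913.5 in Pre-enriched on average), among 22 S phase genes 0.657 (Ccne1, cyclin E1) and among 16 G2/M genes 0.651 (Ccnb1, cyclin B1). The most abundant genes of these lists were Snrpb, Npm1, Mcm6 and Ube2c.

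The input series asks how far the transcriptome of fewer cells resembles that of bulk RNA. Its table was normalized apart from that of the processing conditions, so levels were not tested across the tables, and within it values were described and not tested. Hist1h2bc was the highest histone gene here, with 138.3 and 133.0 TPM in bulk RNA, and Hist1h1c was second in bulk RNA with 108.7 and 110.3 TPM. Hist3h2a had 46.8 and 36.1 TPM. Together these 3 genes held 84.0% and 81.2% of the histone TPM of the bulk libraries. Hist1h4d (12.8 and 14.9 TPM) and Hist1h4i (10.3 and 10.9 TPM) led H4, and Hist1h3d (5.49 and 4.35 TPM) led H3. Hist1h2bg had a mean of 2.97 TPM, Hist1h3e of 0.877 TPM and Hist1h3i of 0.286 TPM in bulk RNA. Hist1h1b had 1.74 and 1.72 TPM.

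Single cells differed widely. Their summed histone TPM was 43.9, 46.1, 152.1, 20.9, 43.0, 435.5, 36.3, 307.4, 489.1, 134.5 and 53.4 in cells 1 to 11, against 349.7 and 344.2 in bulk RNA. The highest 2 of these are the cells 6 and 9 that stood apart. The median was 53.4 TPM over 11 cells and 46.1 TPM over 9 without cells 6 and 9. The genes of the table do not add up to the same total in each cell, and with every total set equal, cell 8 (472.9 TPM) lay between cell 9 (489.2) and cell 6 (435.6). The median then was 81.9 TPM, or 67.0 TPM without cells 6 and 9. The number of histone genes at 1 TPM or more was 2 to 19 per cell with a median of 4, and 2 to 8 with a median of 3 without cells 6 and 9. In bulk RNA it was 16 and 18 of 27. The genes of the table add up to 54.2% of the fixed total of TPM in cell 7 and to 99.99% in cell 6, and TPM does not keep the depth, so genes at 0 may be present below what these libraries could show.

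Only a few histone genes were seen in most cells. Hist1h2bc reached 1 TPM in 9 of 11 single cells (7 of 9 without cells 6 and 9) and ranged from 0 to 300.6 TPM with a median of 23.9. Without cells 6 and 9 it ranged from 0 to 61.2 TPM with a median of 21.7. Hist1h4d did so in 8 of 11 (6 of 9), Hist1h2ae in 7 (5 of 9) and Hist3h2a in 6 (4 of 9). Hist1h1c, second in bulk RNA, reached it in 3 cells only, at 16.6 TPM in cell 1, 91.8 in cell 6 and 53.8 in cell 9. Of the 27 genes, 15 reached 1 TPM in no single cell other than cells 6 and 9, and Hist1h2be, Hist1h2bp and Hist1h3i in none of the 11. Of the 11 replication-independent histones, 7 to 10 were at 1 TPM or more in each cell.

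Single cell 8 had the highest values of several histone genes among the single cells. Hist1h2ae stood at 69.5 TPM, Hist1h4i at 63.6, Hist1h2bc at 56.6, Hist1h4d at 55.1 and Hist1h1e at 50.8, and these were its highest histone genes. Hist1h1c and Hist3h2a were listed at 0, as they also were in cells 2, 5, 7 and 11. In the other cells the highest values of Hist1h2ae, Hist1h4i and Hist1h1e were 25.6 TPM (cell 10), 14.8 TPM (cell 9) and 6.06 TPM (cell 3). Hist1h2bc was higher than in cell 8 in cells 3, 6 and 9, at 61.2, 239.1 and 300.6 TPM. Cell 8 lists the fewest genes above 0 (4465) and had the highest summed TPM of 16 G2/M genes (3122), while the H2A.Z gene H2afz stood at 3098 TPM there and at 3299 TPM in cell 3. Cells 10 and 3 followed in the G2/M sum (2610 and 2098 TPM). Without cells 6 and 9, cells 8, 10 and 3 also had the most histone genes at 1 TPM or more (6, 8 and 6), and the other 6 cells had 2 to 4 with G2/M sums of 54.0 to 1470 TPM. The summed TPM of the 22 S phase genes gave another order: it was highest in cells 3 (3359) and 4 (2366), and cell 4 had the lowest histone sum. Cells 6 and 9, with the most histone genes of all, had G2/M sums of 1318 and 1257 TPM. In the 10-cell pools, the pool with the highest histone sum, pool 7, had the lowest G2/M sum (227.6 TPM), and pool 11, with the highest G2/M sum (3002 TPM), had a histone sum of 226.9 TPM. This is a description of single cells and pools, each 1 library, and was not tested.

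The 10-cell pools lay between single cells and bulk RNA in number of histone genes, and varied in sum. Their summed histone TPM ranged from 72.6 (pool 9) to 574.4 (pool 7) with a median of 251.7, or 236.5 without pools 5 and 12. The median number of genes at 1 TPM or more was 10.5 of 27, or 9.5 without pools 5 and 12. Hist1h2bc and Hist3h2a reached 1 TPM in all 12 pools, at 12.2 to 377.9 TPM and 15.6 to 62.0 TPM. Hist1h1c was listed at 0 in pool 9 and at 7.68 to 147.2 TPM in the other 11. Against the mean of bulk RNA, the median of the 10-cell pools was 3.28 times for Hist1h2ae, 1.21 times for Hist1h1e and 1.15 times for Hist1h2bc, but 0.339 times for Hist1h1c. Without pools 5 and 12 these ratios were 2.96, 1.38, 0.885 and 0.279, so that Hist1h2bc lay above bulk RNA with these pools and below it without them. In 15 genes the median of the 12 pools was 0 (18 without pools 5 and 12), among them Hist1h3d with 4.92 TPM and Hist1h2ad with 2.05 TPM on average in bulk RNA. No histone gene of the 26 at 1 TPM or more in 3 libraries had 10-cell values wholly above or wholly below bulk RNA. Of all 12325 genes, 8.95% were higher and 40.5% lower without overlap (49.4% in either direction). Without pools 5 and 12, 0 histone genes were higher and 2 lower, where 9.30% and 43.3% of all genes were. Hist1h2af, Hist1h2bb, Hist1h2bp, Hist1h3i, Hist1h4j, Hist2h2ac, Hist2h2bb, Hist3h2ba and Hist4h4 were at 0 TPM in at least 1 bulk library. They could not lie wholly below both, so the counts do not show how histone genes compare with all genes.

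**Figure D4:**
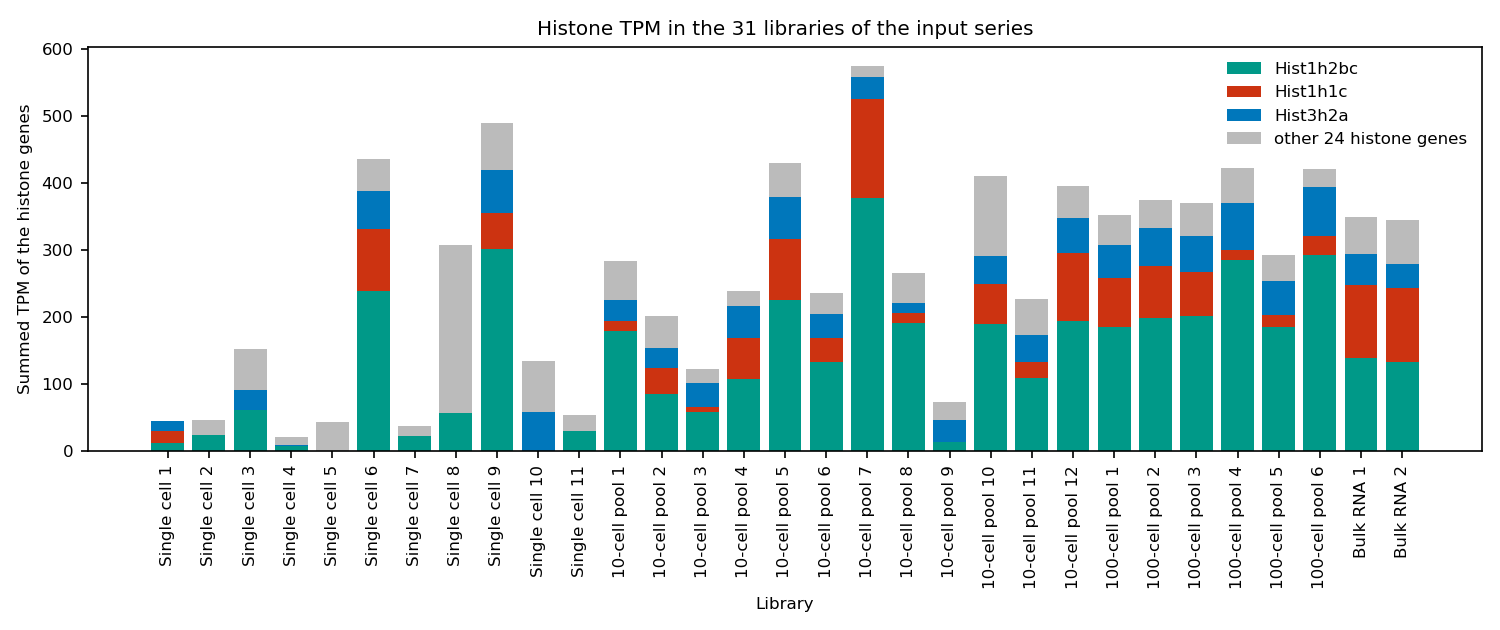
Summed TPM of the 27 histone genes in each of the 31 libraries of the input series, stacked by Hist1h2bc, Hist1h1c, Hist3h2a and the other 24 genes. The sum runs from 20.9 TPM in single cell 4 to 574.4 TPM in 10-cell pool 7, and Hist1h1c is smaller in 100-cell pools 4 to 6 than in pools 1 to 3.

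In the 6 pools of 100 cells, the summed histone TPM was 352.1, 374.8, 369.3, 422.2, 292.3 and 421.3, below both bulk libraries in pool 5 and above them in the other 5. Without Hist1h2bc, the most abundant gene in all of them, the sum was 107.1 to 176.2 TPM in the pools, below the 211.4 and 211.2 TPM of bulk RNA in all 6. In the 6 pools, 15, 15, 17, 14, 12 and 9 genes reached 1 TPM. Hist1h2bc stood at 184.5, 198.5, 201.8, 284.0, 185.2 and 291.5 TPM, above bulk RNA in all 6. Hist3h2a (50.1 to 73.8 TPM) and Hist1h2ae (2.25 to 8.85 TPM, with 0.991 and 1.47 TPM in bulk RNA) were also above bulk RNA in all 6. These were 3 of 26 genes, where 13.9% of all genes were higher without overlap. Hist1h1b, Hist1h1c, Hist1h1d, Hist1h2ad, Hist1h4d and Hist2h2be were below bulk RNA in all 6 pools, 6 of 26 genes where 52.5% of all genes were lower (66.4% in either direction). Against 1 bulk library alone, 7 to 10 genes were lower, where 55.4% to 55.6% of all genes were. With pools 4 to 6 alone, 3 genes were higher and 8 lower, where 19.0% and 66.7% of all genes were. Genes at 0 TPM in a bulk library, named above, could not be lower than both bulk libraries here either. Hist1h2af and Hist1h4j were at 0 TPM in every 100-cell pool and in bulk RNA, so they could count in neither direction.

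Pools 1 to 3 and pools 4 to 6 are described separately because they differ across the transcriptome, although the labels do not divide them. Hist1h1c stood at 73.3, 77.2 and 65.2 TPM in pools 1 to 3 and at 15.2, 17.8 and 29.0 TPM in pools 4 to 6. The summed TPM of the 6 epithelial tumor genes moved with it, at 26600, 26365 and 27984 TPM in pools 1 to 3 and 7214, 9620 and 10682 TPM in pools 4 to 6. The erythroid gene Alas2 moved the other way, at 1.80, 1.94 and 1.03 TPM in pools 1 to 3 and 11.6, 4.75 and 7.86 TPM in pools 4 to 6. The part of either in the histone values was not tested. Hist1h1e (1.77, 1.71 and 2.61 against 0, 0.439 and 0.585 TPM) and Hist2h2be (0.905, 1.39 and 1.34 against 0.541, 0.569 and 0.175 TPM) were also higher in every pool of the first set. No histone gene was lower in all 3 of them. These 3 of 26 genes stand beside 58.8% of all genes that were higher in pools 1 to 3 without overlap and 15.9% that were lower. Since the sets were formed after the values of other genes were known, this is a description. Outside the cluster genes, H2afz had 987.1, 990.5 and 998.7 TPM in pools 1 to 3 and 2289, 2008 and 1730 TPM in pools 4 to 6, so that it was lower in every pool of the first set. The sum of all 11 replication-independent histones differed far less, so the others together went the other way. It was 5201, 5249 and 5029 TPM in pools 1 to 3 and 5287, 5459 and 5432 TPM in pools 4 to 6. The sum of the 22 S phase genes was higher in the first set (1416, 1355 and 1284 against 974.4, 981.0 and 929.2 TPM).

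**Figure D5:**
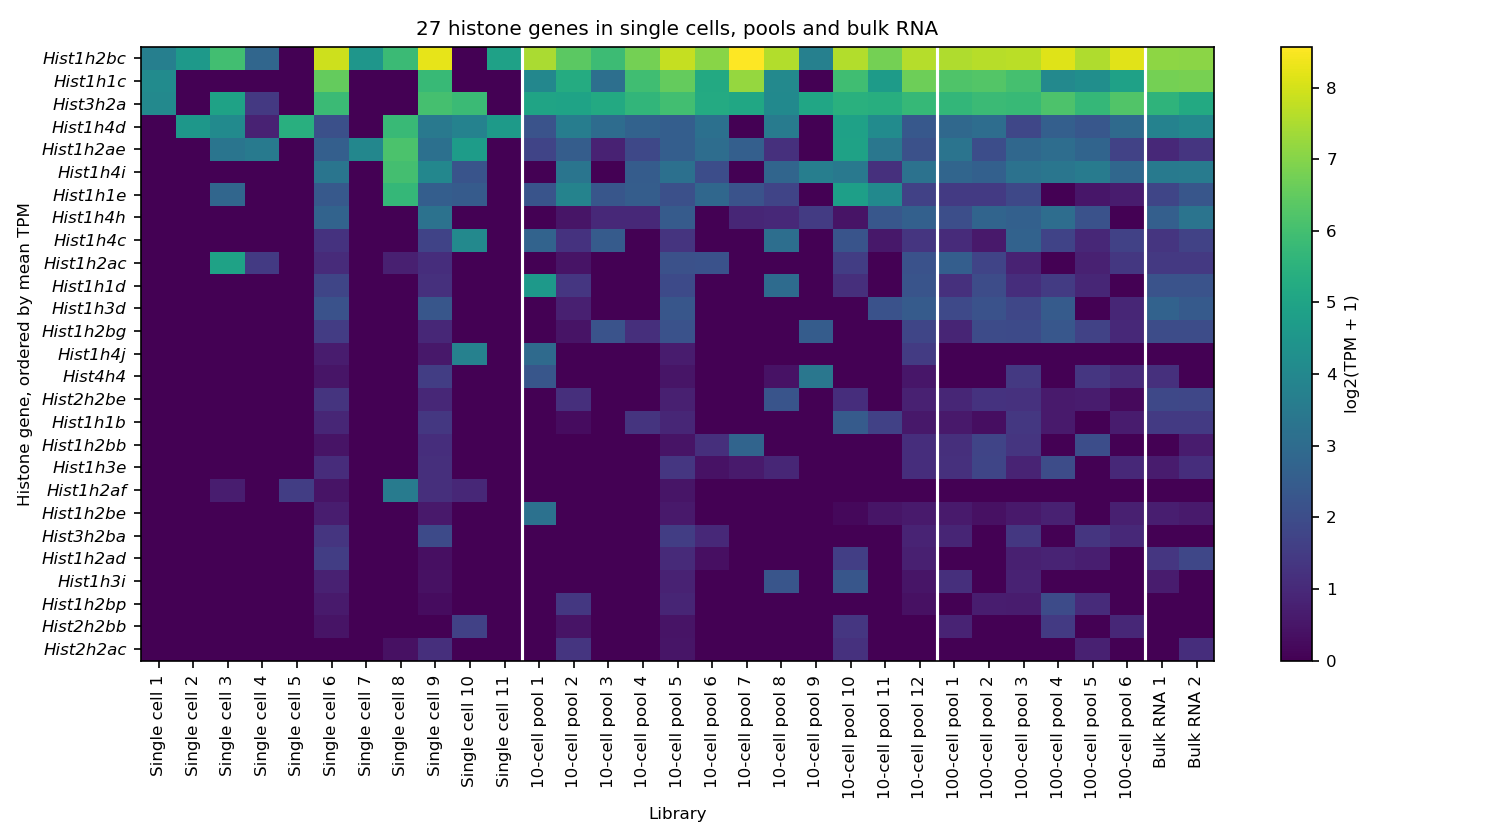
log2(TPM + 1) of the 27 histone genes (ordered by mean TPM) in single cells, 10-cell pools, 100-cell pools and bulk RNA; white lines divide the inputs and the darkest color is 0 TPM. Single cells 6 and 9 and 10-cell pool 5 list 26, 26 and 27 of the 27 genes above 0, against 2 to 9 in the other single cells.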

How the data were processed

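RNA was reverse transcribed and amplified with the SMART-Seq v4 kit, which primes polyadenylated RNA. Per the labels and the study's methods, the authors sequenced 75-base read pairs, aligned them with STAR (2.52 in the submitters' processing notes) to mm10, counted reads per gene with featureCounts, scaled them by upper quartile and deposited TPM per gene in 2 tables normalized separately. TPM keeps no depth, so the depth of a single library cannot be read from the tables and no counting interval could be given.

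From the deposited TPM, log2(TPM + 1) was tested with limma 3.58.1 (R 4.3.3, empirical Bayes with a trend) over the 12 processing libraries without covariates, for genes at 1 TPM or more in at least 3 libraries, at an adjusted p of 0.05. Fold changes of low genes are understated by the pseudocount. The script was tested on simulated data. The input series was described without tests. Named genes were those called among the 4 conditions, the 3 of lowest adjusted p in each pair, the 2 of highest mean TPM in each class, and in the input series the 2 highest per class, the 3 seen in most single cells and the 3 with the highest and lowest ratio of 10-cell pools to bulk RNA. Alternatives were a pseudocount of 0.1, no filter, a mean of at least 5 TPM, no trend, quantile normalization, the replicate number as a block and leaving out each library. The histone genes and the lists were chosen with earlier results of these data known.
Sequences were read from the GENCODE transcripts of mm10 and may differ from the annotation the authors counted on. An allele of the mouse model is not reported here.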

Additional observations from a re-analysis of the deposited data

Results flagged for a closer look

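Hist2h2ac, a core histone H2A gene, was listed at 0.734 TPM in 100-cell pool 5 and at 0 in the other 5 pools of 100 cells, so that this pool stood apart by Dixon's criterion (0.625 for 6 samples). With the other pools all at 0, any value above 0 meets this criterion, and the value is under 1 TPM. Of 15 histone genes and sums looked at in this way, this was the only one, and chance passes about 1 in 20 groups. In bulk RNA the gene stood at 0 and 1.17 TPM.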

How the results depend on the processing

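The replicate numbers did not meet the criterion set for pairing, an r above 0.1 in every pair: deviations from the condition means correlated at r = -0.042 to 0.229 between libraries of the same number in different conditions, above 0.1 in 2 of 18 pairs. As a hint from the data and not from the design, 11 of 12 libraries correlated best on average with those of their own number. With the replicate number as a block, 61 genes differed among the 4 conditions against 13 without it, and 2 histone genes were called among the 4 conditions (Hist1h1b, adjusted p = 0.0068; Hist1h2ae, 0.0496), 2 for Pre-enriched against Pre-FACS (Hist1h1b, 0.0106; Hist1h2ae, 0.0280), where 37 of all genes were called against 6 without the block, and 2 for FACS-only against Pre-FACS (Hist1h1b, 0.0202; Hist1h2bb, 0.0258), where 77 were called against 15, all in limma. Without the filter on low values and without the mean-variance trend, 0 histone genes were called among the 4 conditions (Hist1h1b, adjusted p = 0.0607 and 0.143) and 0 for Pre-enriched against Pre-FACS (0.0581 and 0.0844), and 7 and 1 genes of all were called. A pseudocount of 0.1 gave 1 histone call for FACS-only against Pre-FACS, Hist1h2bb, among 16 of all genes. Leaving out 1 library in turn gave 0 to 1 histone calls among the 4 conditions, for Pre-enriched against Pre-FACS and for FACS-only against Pre-FACS, and 1 to 17 calls over all genes among the 4 conditions. The cause of these changes was not tested. Hist1h1b kept its direction in every alternative for every pair named above.

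With a limit of 5 TPM, the median number of histone genes detected was 5.5 in 10-cell pools, 6 in 100-cell pools and 6.5 in bulk RNA, and with any value above 0 it was 19 in 100-cell pools and 20 in bulk RNA, against 14.5 and 17 at 1 TPM. Without the most abundant histone gene, the median sum was 152.8 TPM in 100-cell pools and 211.3 TPM in bulk RNA. Against bulk RNA, 2 genes were lower without overlap in the 10-cell pools when pools 5 and 12 were left out, which was chosen after seeing the data (43.3% of all genes), and 1 to 2 when either bulk library was (42.2% to 42.8%). In the 100-cell pools 7 to 10 genes were lower than the 1 bulk library kept (55.4% to 55.6% of all genes), and leaving out 1 pool gave 3 to 5 genes higher (59.8% to 62.2%) and 0 to 3 lower (16.7% or more) in pools 1 to 3 than in pools 4 to 6. The tables keep no depth of single libraries, so a gene listed at 0 in a small input was not shown to be absent. A gene at 0 TPM in a bulk library could not be counted as lower than it.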

Other observations

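In each of the 4 processing conditions, the library numbered 3 had the lowest summed histone TPM (430.6, 464.1, 428.6 and 433.1 TPM). The library numbered 1 had the highest (615.3, 621.4, 584.3 and 555.3 TPM), in the order Pre-FACS, Mock, FACS-only and Pre-enriched. Other sums moved with the number. In library 3 of every condition the replication-independent histones were lowest (4822, 4594, 4540 and 4484 TPM). The epithelial tumor genes were highest there (21660, 22162, 22947 and 22696 TPM). Hist1h1c, Hist1h1d, Hist1h2bc and Hist1h2bj were lowest in library 3 of every condition, 4 of 34 histone genes beside 2.76% of all 12159 genes tested. For library 1 and library 2 the number was 0 histone genes, beside 3.87% and 1.18% of all genes. The numbers carry no order in the labels, the pattern was seen in the data and not tested, and what the libraries numbered 3 share is not given in the sources used here.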
